A study of Homo sapiens with 9 samples.

Results

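The genes described here encode 8 cell adhesion proteins best known from neurons: the 4 members of the L1 family (CHL1, L1CAM, NFASC and NRCAM), the neural cell adhesion molecules NCAM1 and NCAM2, contactin-1 (CNTN1) and Thy-1 (THY1, also called CD90). They are 8 of the 33264 genes in the deposited table and were picked by gene symbol through their Ensembl IDs. All 8 had a row, 6 reached the level required for a fit (3 or more libraries with values from 10 upward, as in 16456 genes), and NRCAM and CNTN1 did not. CHL1 reached it only through the libraries where it was high, and NCAM2 through 3 libraries in all. Because the levels in the 3 groups led to the choice of these genes, their levels and differences are given as a description, without a test.

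RNA was sequenced from U87MG, an established human glioblastoma cell line, with 3 samples in each of 3 groups. The parent line is called parent. R50 is a clonal line derived from it and grown all the time in 50 µM temozolomide (TMZ), a DNA-alkylating drug used against glioblastoma. R50_OFF is the other clonal line, which was made resistant to the same dose and freed of the drug after 2 months. Each resistant group is thus 1 clonal line, clone and drug history cannot be told apart, and no source says that samples of a group were separate cultures, so spreads and p-values describe these samples only, and the spread may be technical.

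L1 family proteins span the membrane. Outside the cell their immunoglobulin and fibronectin repeats bind each other, integrins and matrix, and inside it a short tail holds ankyrins and, in L1, proteins of the ezrin family that tie the membrane to spectrin and actin. They guide growing axons, and neurofascin and NrCAM assemble the node of Ranvier. Thy-1 and contactin-1 have no tail and are fixed to the outer leaflet by a lipid (GPI) anchor. NCAM1, known as CD56, carries polysialic acid in the developing brain. Several of these proteins have been studied in gliomas, where L1 is linked to cell motility and Thy-1 is used as a marker of mesenchymal-like cells.

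The libraries held 28.7 M to 35.8 M reads each, as traced from the deposited values. Those values are a normalized signal per kilobase of median transcript length, given below as mean ± SD over 3 libraries, and reads are the whole reads found behind them. R50 replicate 2 stood apart from the other R50 libraries, with a chi-square per gene of 13.47 and 16.25 against replicates 1 and 3, beside 4.28 between those 2 and 2.27 to 6.36 within the other groups. U87MG carried little of the astrocyte program: GFAP, S100B and SLC1A2 lay under 10 in every library, while SLC1A3, a glutamate transporter of astrocytes, averaged 2925 ± 119 in parent, 5591 ± 256 in R50 and 5549 ± 209 in R50_OFF. ALDH1L1, an astrocyte enzyme and the other tested marker of that list, went the other way, falling from 36.4 ± 8.73 to 1.03 ± 0.959 and 0.711 ± 0.644. Of the neuronal markers, RBFOX3, ELAVL3 and ELAVL4 lay under 10 in every library, and the summed neuronal list spanned 1442 to 1582 in parent, 1233 to 1449 in R50 and 1458 to 1548 in R50_OFF. Single neuronal markers moved in opposite directions: of 4 tested, 1 rose and 2 fell in R50, and 2 rose and 2 fell in R50_OFF. The shares over all tested genes were 31.6% rising and 31.7% falling in R50, and 26.3% and 25.7% in R50_OFF. SNAP25, a synaptic vesicle fusion protein, fell from 401 ± 23.2 to 41.8 ± 1.84 and 252 ± 19.0, while MAP2, a microtubule protein of dendrites, rose from 684 ± 36.0 to 1074 ± 72.5 and 954 ± 32.2. Of the leukocyte markers, PTPRC, CD3D and CD3E lay under 10 in every library, but the summed list spanned 2.13 to 7.68 in parent, 27.1 to 48.5 in R50 and 13.4 to 20.9 in R50_OFF. ITGAM, an integrin subunit of that list, averaged 0.667 ± 1.16, 24.2 ± 3.33 and 5.81 ± 3.64. The part of these markers in the results below was not tested. In bulk RNA, fewer cells with a transcript and less transcript per cell cannot be told apart.

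Promoter sequences from RefSeq (GRCh38.p14, 250 bases before to 50 bases after a start) matched 6 of the 8 genes. CHL1, L1CAM and THY1 were low in parent and far higher in R50. NCAM1 and THY1 had no entry. A promoter of CHL1, of L1CAM and of NFASC, which was lower in R50, is printed 5′ to 3′ with each CG dinucleotide in capitals, since CG is the dinucleotide at which DNA methylation is placed. The CHL1 sequence lies at chr3:196513-196812 on the plus strand, the L1CAM sequence at chrX:153875895-153876194 on the minus strand and the NFASC sequence at chr1:204828402-204828701 on the plus strand.
CHL1: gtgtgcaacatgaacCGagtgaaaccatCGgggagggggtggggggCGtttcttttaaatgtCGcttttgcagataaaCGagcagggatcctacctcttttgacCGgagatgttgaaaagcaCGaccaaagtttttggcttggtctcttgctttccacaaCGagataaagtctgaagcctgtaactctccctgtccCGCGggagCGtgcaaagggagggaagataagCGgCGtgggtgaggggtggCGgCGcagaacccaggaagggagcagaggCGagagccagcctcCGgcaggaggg
L1CAM: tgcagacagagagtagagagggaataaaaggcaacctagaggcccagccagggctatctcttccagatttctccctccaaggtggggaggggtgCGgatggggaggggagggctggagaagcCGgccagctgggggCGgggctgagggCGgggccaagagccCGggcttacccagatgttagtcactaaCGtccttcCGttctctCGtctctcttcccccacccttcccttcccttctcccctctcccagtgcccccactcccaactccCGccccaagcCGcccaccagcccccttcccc
NFASC: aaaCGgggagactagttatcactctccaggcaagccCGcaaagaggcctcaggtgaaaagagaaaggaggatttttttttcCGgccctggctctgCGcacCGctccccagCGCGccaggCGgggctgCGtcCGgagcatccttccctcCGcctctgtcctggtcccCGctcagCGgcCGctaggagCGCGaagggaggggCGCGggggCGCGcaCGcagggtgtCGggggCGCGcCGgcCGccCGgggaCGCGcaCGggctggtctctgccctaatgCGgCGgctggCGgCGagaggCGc
The CHL1 stretch held 17 CG dinucleotides, the L1CAM stretch 10 and the NFASC stretch 35, beside a median of 14 over 35116 RefSeq promoters of the same length. Fewer CGs were found in 54.0% of promoters for CHL1, 43.6% for L1CAM and 85.9% for NFASC. The counts depend on the start: the other CHL1 starts held 20 and 2 CGs, the other L1CAM start 8 and the other NFASC start 9. On either strand, L1CAM and NFASC held GGGCGG, as 45.0% of promoters did, and none of the 3 held TATAAA (11.5% of promoters) or CACGTG (7.3%). RefSeq lists 3 starts for CHL1, 2 for L1CAM and 2 for NFASC. Both L1CAM stretches lie inside the gene as annotated by GENCODE (chrX:153861514-153886173). The printed CHL1 and NFASC stretches instead span the annotated start of their genes. Which start these cells used was not measured, and DNA methylation was not measured.

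Across the 6 genes with a fit, the groups did not overlap for any gene between R50 and parent, where 4 genes were higher and 2 were lower. Among all fitted genes, 68.2% did not overlap in that comparison, 34.7% being higher and 33.6% lower. In R50_OFF against parent, 4 genes were higher, 1 was lower and 1 overlapped, beside 31.6% higher and 31.1% lower of all fitted genes (62.8% in all). In R50_OFF against R50, 3 were higher, 2 were lower and 1 overlapped, beside 31.8% higher and 31.5% lower (63.4% in all). Since those same levels chose the genes, nothing is read from the counts.

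CHL1, the close homologue of L1, is an L1 family receptor that promotes neurite growth and interacts with integrins. Its gene lies at chr3:196763-409417 (GENCODE version 44, hg38). In parent it had a single read, in replicate 1, for values of 1.57, 0 and 0. In R50 the values were 550, 646 and 575, from 406, 471 and 402 reads. In R50_OFF they were 601, 564 and 566, from 397, 447 and 357 reads. All 6 libraries of the resistant lines were high, and the 2 resistant lines overlapped. Depth-adjusted reads were 1165 times those of parent in R50 (95% exact interval of counting error 209 to 46049) and 1137 times in R50_OFF (204 to 44942), ratios that rest on that 1 parent read. The R50_OFF to R50 ratio was 0.976 (0.901 to 1.06). On the log2(value + 1) scale CHL1 was 8.75 higher in R50 (SE 0.30) and 8.72 higher in R50_OFF (SE 0.30). These differences moved to 11.17 and 11.14 with a pseudocount of 0.1 and to 6.14 and 6.11 with one of 8.

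L1CAM, the founding member of the family, binds itself and integrins and is shed from the cell surface. Its gene lies at chrX:153861514-153886173. Values were 19.0, 12.1 and 21.8 in parent, 2190, 1862 and 2517 in R50 and 619, 571 and 639 in R50_OFF. The 3 groups were separate, with R50 highest, R50_OFF between and parent lowest. The parent values stood on 11, 8 and 12 reads, so their counting error is wide. Means were 17.6 ± 4.99, 2190 ± 328 and 610 ± 34.6, which made R50 124-fold and R50_OFF 34.6-fold higher than parent. R50 was also 3.59-fold higher than R50_OFF. The log2 differences were 6.91, 5.07 and -1.83 (SE 0.18 each) for R50 against parent, R50_OFF against parent and R50_OFF against R50.

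NFASC, neurofascin, clusters sodium channels at the axon initial segment and node through ankyrin-G. It was the L1 family gene with the most reads in parent (chr1:204828651-205022822). Its values were 917, 944 and 920 in parent, 229, 211 and 241 in R50, and 388, 390 and 391 in R50_OFF. The order was the reverse of that of L1CAM, with no overlap between any 2 groups. Means were 927 ± 14.7, 227 ± 15.04 and 390 ± 1.62, so R50 was 4.08-fold and R50_OFF 2.38-fold lower than parent, and R50_OFF was 1.71-fold higher than R50. The log2 differences were -2.03, -1.25 and 0.78 (SE 0.06 each).

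NRCAM, which like neurofascin serves the node of Ranvier, had 1, 1 and 2 reads in parent, 3, 3 and 2 in R50 and 0, 1 and 0 in R50_OFF (chr7:108147623-108456717). CNTN1, a GPI-anchored partner of L1 family proteins and of contactin-associated proteins, had 0 reads in all parent libraries, 2 reads in R50 replicate 3 and 1 read in R50_OFF replicate 2 (chr12:40692439-41072415). No library of either gene exceeded 3 reads, the number that a count of 0 allows in a library. Summed over libraries, NRCAM had 4 reads in parent, 8 in R50 and 1 in R50_OFF. In normalized values the R50_OFF libraries lay below those of both other groups without overlap. In reads, R50_OFF replicate 2 tied with parent replicates 1 and 2, at 1 read each. The depth-adjusted read ratio of NRCAM was 0.130 for R50_OFF against R50 (95% exact interval of counting error 0.00293 to 0.969) and 0.237 for R50_OFF against parent (0.00481 to 2.39). For CNTN1 no difference was detectable at this depth.

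NCAM1 mediates adhesion between like cells and signals through FGFR1. It was present in every library (chr11:112961275-113278436). Values were 271, 258 and 273 in parent, 451, 375 and 393 in R50 and 705, 669 and 668 in R50_OFF. The groups were separate, with R50_OFF highest and R50 between, an order none of the L1 family genes had. Means were 267 ± 8.17, 406 ± 39.5 and 681 ± 20.8, 1.52-fold and 2.55-fold above parent, and R50_OFF was 1.68-fold above R50. The log2 differences were 0.60, 1.35 and 0.75 (SE 0.08 each). NCAM2, its paralogue, had 3, 21 and 9 reads in parent, 1, 0 and 2 in R50 and 7, 5 and 3 in R50_OFF (chr21:20998409-21543329). The parent libraries were spread too widely to separate from R50_OFF, and the R50 libraries were lower than both. That separation rests on 2 reads in the highest R50 library against 3 in the lowest parent and R50_OFF libraries. The log2 differences were -2.84 against parent in R50, -0.83 in R50_OFF and 2.01 for R50_OFF against R50 (SE 0.69 each). They changed with the pseudocount, to -4.16 with 0.1 and -1.35 with 8 for R50 against parent.

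THY1 is a GPI-anchored protein of neurons and fibroblasts that binds integrins. Its gene lies at chr11:119415476-119424985. Values were 1.76, 20.0 and 16.7 in parent (1, 13 and 9 reads), 3448, 3241 and 4015 in R50, and 447, 477 and 538 in R50_OFF. The groups were separate, and R50 was the highest and parent the lowest, the same order as in L1CAM. Means were 12.8 ± 9.73, 3568 ± 401 and 488 ± 46.3, so R50 was 278-fold and R50_OFF 38.02-fold above parent, and R50 was 7.32-fold above R50_OFF. The log2 differences were 8.46, 5.59 and -2.87 (SE 0.59 each), and as single libraries were left out the first ranged from 7.53 to 8.99 and the second from 4.66 to 6.12, both lowest without parent replicate 1. THY1 is also a mesenchymal marker, so the summed level of 8 other mesenchymal markers is given beside it: 58384 to 65385 in parent, 58898 to 64256 in R50 and 46425 to 48223 in R50_OFF. The genes with the highest levels in that sum moved in opposite directions in R50. NT5E fell from 38118 ± 1577 in parent to 18312 ± 1228 in R50, and COL1A1 rose from 17061 ± 1615 to 29712 ± 2386. Of 7 tested genes in that list, 3 rose and 4 fell in R50, beside 31.6% and 31.7% of all tested genes. In R50_OFF, 0 rose and 5 fell, beside 26.3% and 25.7%. The part of that list in the THY1 result was not tested.

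**Figure D1:**
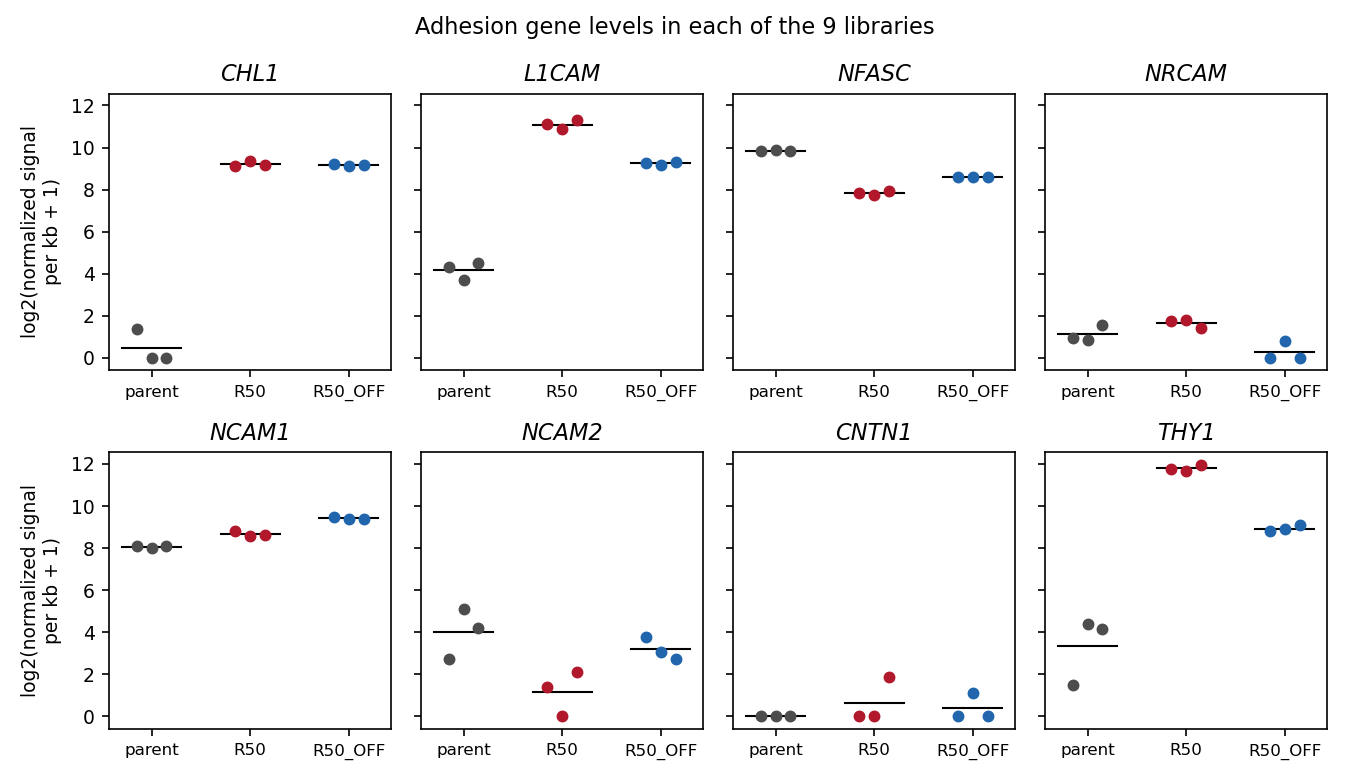
Log2(value + 1) of the deposited normalized signal per kilobase for the 8 genes, with 1 point for each of the 3 libraries in parent, R50 and R50_OFF and a line at the mean of the 3 log2 values. CHL1, L1CAM and THY1 lie far below the resistant lines in parent, and NFASC is highest in parent.

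**Figure D2:**
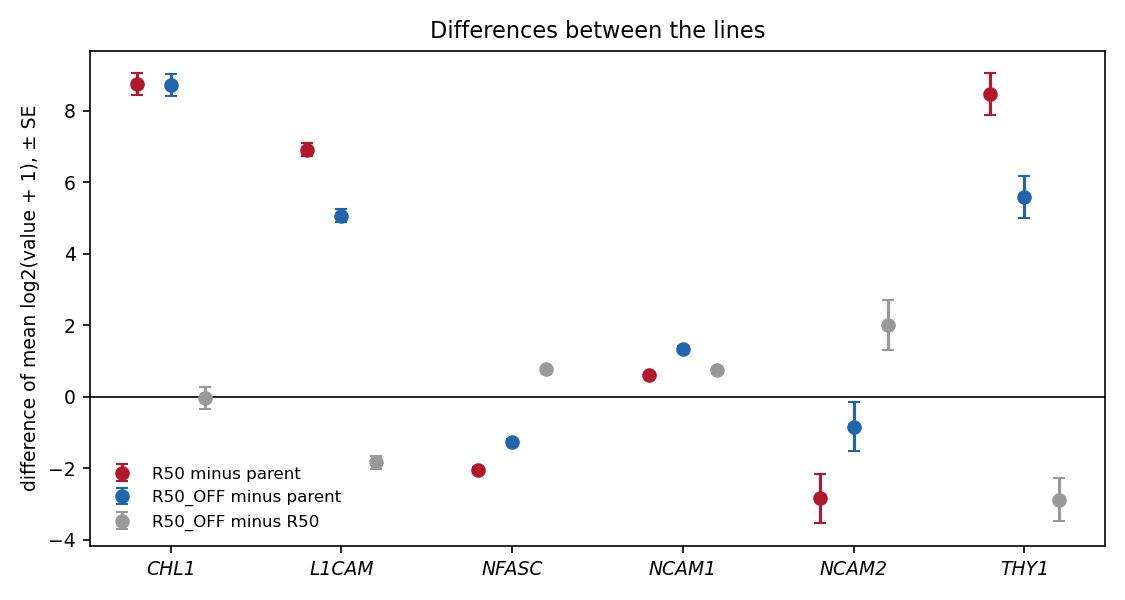
Log2 differences of the 6 fitted genes on the log2(value + 1) scale in R50 minus parent, R50_OFF minus parent and R50_OFF minus R50, with bars of 1 SE. CHL1 is 8.75 and 8.72 higher in the resistant lines, NFASC is -2.03 and -1.25, and only CHL1 is near 0 between the resistant lines (-0.03).

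Levels between genes depend on the transcript length by which the authors divided. That length was the median over annotated transcripts, and for CHL1 it was 684.5 bases where the canonical GENCODE transcript has 7856, a ratio of 11.5. For NFASC the lengths were 4126 and 10336, a ratio of 2.51, so the deposited values set CHL1 higher against NFASC than a full-length division would. Per deposited kilobase the order in R50 was THY1 (3568), L1CAM (2190), CHL1 (591), NCAM1 (406) and NFASC (227). Per kilobase of canonical transcript, R50 held THY1 at 483 ± 54.3, L1CAM at 265 ± 39.7, NCAM1 at 93.7 ± 9.11, NFASC at 90.7 ± 6.005 and CHL1 at 51.5 ± 4.35. CHL1 thus fell below NCAM1 and NFASC to the last place of these 5, and NCAM1 and NFASC lay within their SDs of each other. In R50_OFF, NCAM1 (157 ± 4.80) and NFASC (156 ± 0.649) were also within their SDs, above L1CAM (73.9 ± 4.19), THY1 (66.0 ± 6.27) and CHL1 (50.3 ± 1.82). In parent, NFASC (370 ± 5.88) and NCAM1 (61.5 ± 1.88) were the only members above 10 on this scale. The percentile of THY1 among tested genes in R50 was 87.7 as deposited and 72.7 per canonical kilobase, and that of CHL1 was 58.0 and 33.0. Differences between groups are untouched by the length except through the pseudocount.

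**Figure D3:**
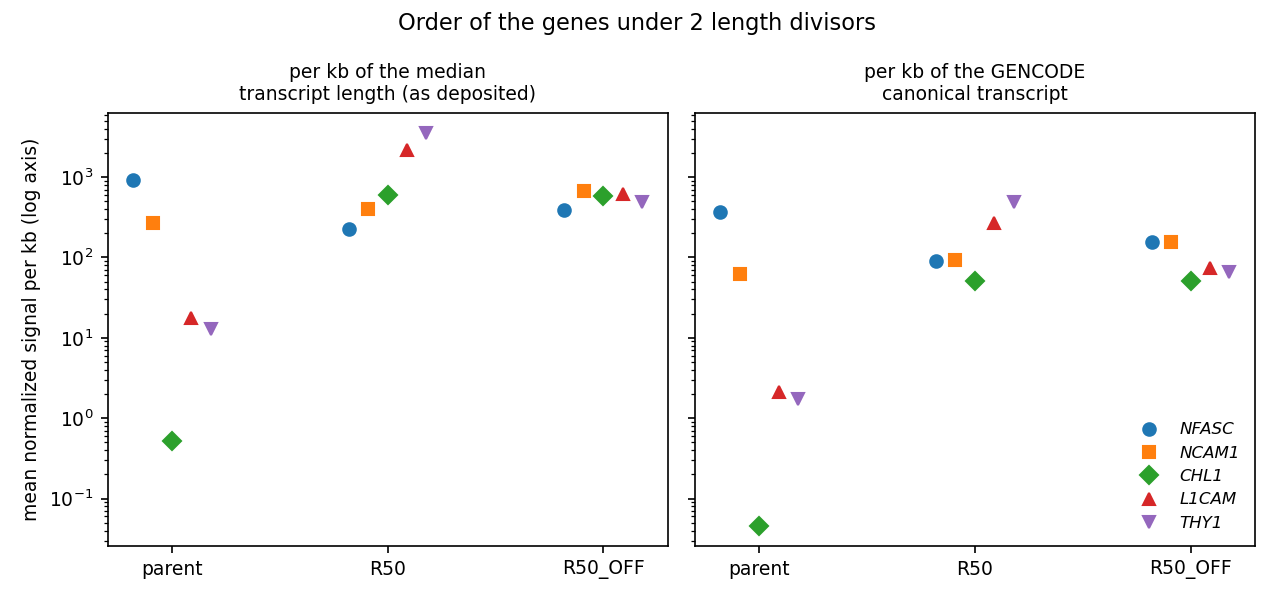
Mean levels of NFASC, NCAM1, L1CAM, THY1 and CHL1 in parent, R50 and R50_OFF on a log scale, per kilobase of the authors' median transcript length and per kilobase of the canonical transcript, n = 3 per point. In R50, CHL1 lies above NCAM1 and NFASC under the first divisor (591 against 406 and 227) and below both under the second (51.5 against 93.7 and 90.7).

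Profiles over the 9 libraries were compared by the root mean square distance between log2(value + 1) profiles, each centred on its own mean, a description without a test. Among the members, L1CAM and THY1 were closest to each other of the 3 resistant-high genes (1.075), followed by CHL1 and L1CAM (1.541) and CHL1 and THY1 (1.816), while CHL1 and NFASC were 4.916 apart. Of all tested genes, those nearest to CHL1 were CSAG1 (0.81), with means of 14.9, 2311 and 2196 in parent, R50 and R50_OFF, ZNF468 (0.846) and ENSG00000255442 (0.861). CSAG1, a cancer-testis family gene, also lies near L1CAM on the X chromosome. Those nearest to THY1 were ZNF91 (0.372), with means of 2.37, 807 and 86.0, ZNF681 (0.754) and ZNF208 (0.767), all genes of KRAB zinc finger proteins. Both CSAG1 and these zinc finger genes belong to families of related genes, and whether reads were shared between relatives was not measured.

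Genes within 2 megabases of each member were counted to see how its stretch of chromosome behaved, where called means adjusted p at or under 0.05 by limma with Benjamini-Hochberg adjustment. Around L1CAM, 64 genes were tested, of which 16 rose and 27 fell in R50 and 15 rose and 17 fell in R50_OFF, with median log2 differences of -0.11 and -0.04. Single genes there, named after their values were seen, lay far from the median: MAGEA12 and CSAG1, cancer-testis genes that start 1.15 Mb from L1CAM, were 7.31 and 7.22 higher in R50 and 7.28 and 7.14 higher in R50_OFF, and CTAG2 was at -6.11 in both. Around THY1, 14 of 38 rose and 9 fell in R50, and 15 rose and 13 fell in R50_OFF. Around NFASC, 15 of 47 rose and 16 fell in R50, and 10 rose and 18 fell in R50_OFF. Around NCAM1, 9 of 24 rose and 6 fell in R50, and 6 rose and 4 fell in R50_OFF. Over all tested genes, 31.6% rose and 31.7% fell in R50, and 26.3% rose and 25.7% fell in R50_OFF. Only 2 tested genes lay near CHL1. One was CNTN6, which encodes contactin-6 and starts 895.9 kb from the start of CHL1: listed at 0 in parent, it reached 33.5 ± 1.504 in R50 and 0.718 ± 0.666 in R50_OFF. CNTN6 rose in R50 (log2 difference 5.11, SE 0.50, limma with Benjamini-Hochberg adjusted p = 5.79e-06) and was not called in R50_OFF (0.70, adjusted p = 0.272 by limma). It was lower in R50_OFF than in R50 (-4.41, adjusted p = 2.51e-05 by limma), whereas CHL1 overlapped between those lines. CNTN6 reached the level for a fit through the R50 libraries alone, and its difference in R50 was 8.39 with a pseudocount of 0.1 and 2.37 with one of 8.

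**Figure D4:**
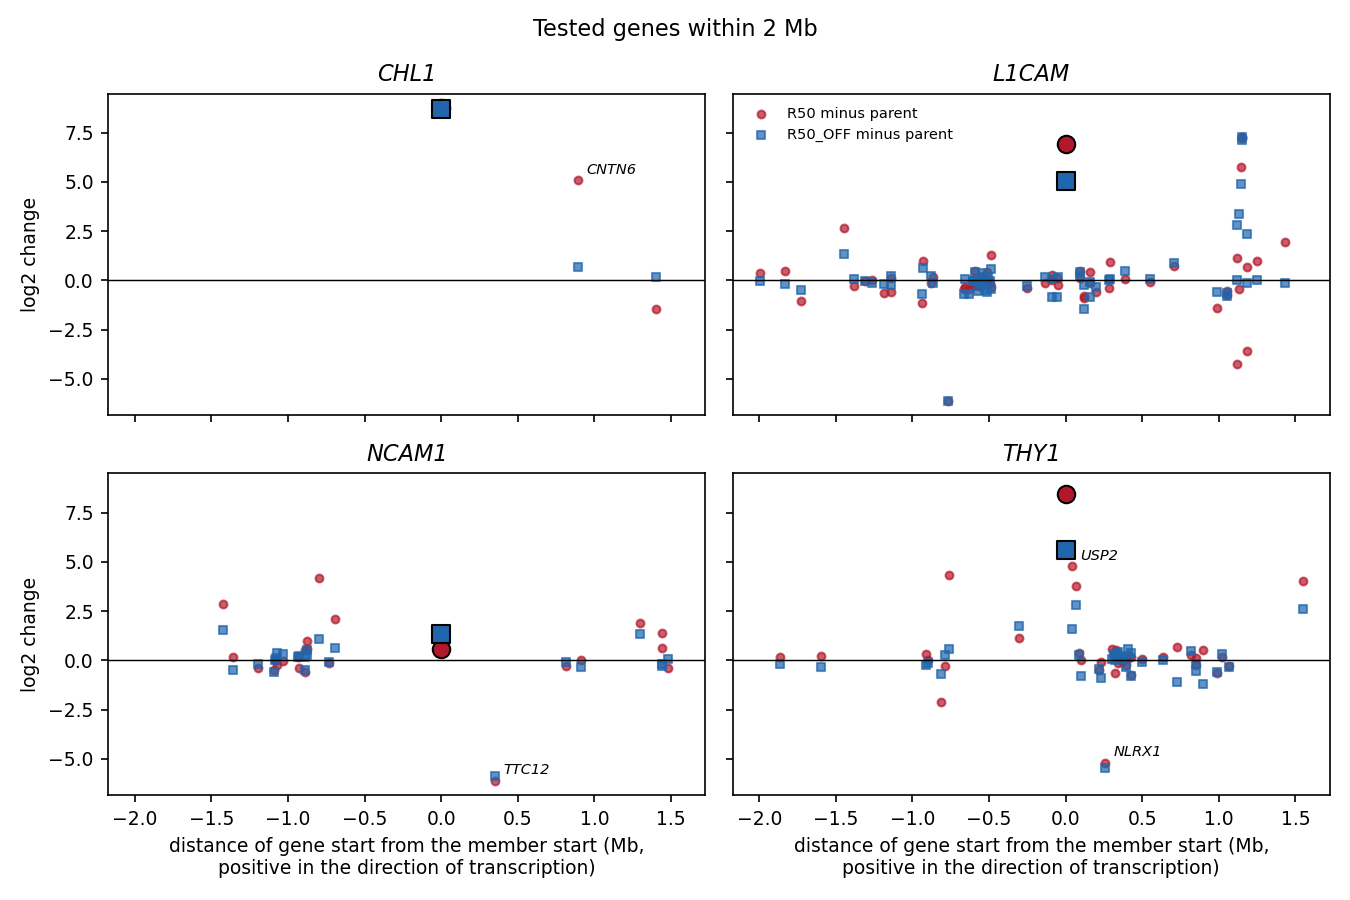
Log2 differences of tested genes within 2 megabases of CHL1, L1CAM, NCAM1 and THY1 by distance of gene starts in Mb, for R50 (red circles) and R50_OFF (blue squares) against parent, with the member as a large marker at distance 0. The CHL1 markers coincide, at 8.75 and 8.72, and TTC12 and NLRX1 lie low beside NCAM1 and THY1.

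Antisense genes that overlap a member on the other strand could share reads with it if strand was ignored in counting, and the setting is not given in the sources used here. USP2-AS1, which overlaps THY1, had 10 reads in parent, 197 in R50 and 96 in R50_OFF, beside 23, 6868 and 902 for THY1. The lncRNA ENSG00000247416 over NCAM1 had 10, 27 and 57 reads, beside 1030, 1726 and 2777 for NCAM1. THY1-AS1 had 0, 7 and 0 reads.

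Genes known to act with these proteins were then counted in 6 lists of 120 genes, of which 95 were tested, in the same fit over all genes. Of the 95, 24 rose and 48 fell in R50 (75.8% called, beside 63.3% of all tested genes), 20 rose and 41 fell in R50_OFF (64.2%, beside 52%), and 36 were higher and 34 lower in R50_OFF than in R50 (73.7%, beside 59.5%, of which 30.2% were higher and 29.3% lower). The median log2 difference of the 95 was -0.22, -0.16 and -0.01, beside 0.016, 0.004 and -0.005 over all tested genes. Shares called in R50 and R50_OFF differed by list: 84.6% and 61.5% for surface and matrix partners, and 78.9% and 57.9% for linkers. They were 84.6% and 92.3% for sheddases, 84.6% and 76.9% for other immunoglobulin-type and CNTNAP genes, and 54.5% and 45.5% for GPI anchor enzymes. The polysialic acid and HNK-1 list had only 2 tested genes. For the counts by direction in each list below, the shares over all tested genes were 31.6% rising and 31.7% falling in R50. In R50_OFF they were 26.3% and 25.7%.

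The list of surface and matrix partners, with receptors and ligands that members bind, held 26 tested genes, of which 5 rose and 17 fell in R50, with a median log2 difference of -0.44, and 3 rose and 13 fell in R50_OFF, with a median of -0.24. Integrin subunits moved in both directions. ITGB1, a beta subunit found in some L1- and CHL1-binding integrins, fell from 58086 ± 921 in parent to 38707 ± 1992 in R50 and 39430 ± 1471 in R50_OFF. ITGB3, whose pairing with ITGAV binds L1 and Thy-1, fell from 3574 ± 117 to 758 ± 122 and 1713 ± 43.2. ITGAV went from 8260 ± 166 to 5954 ± 1264 and 4804 ± 324, and ITGA2 from 4475 ± 183 to 686 ± 80.8 and 2241 ± 240. These 4 subunits fell in both resistant lines, as did ITGA5, from 72459 ± 2975 in parent to 28800 ± 2205 in R50 and 47973 ± 1747 in R50_OFF. ITGA1, which pairs with ITGB1, rose from 128 ± 1.93 to 174 ± 14.6 in R50 and was 112 ± 1.37 in R50_OFF. ITGB5 was 10179 ± 452 in parent and 10439 ± 373 in R50, where it was not called, and fell to 8077 ± 316 in R50_OFF. ITGAM, given above among the leukocyte markers, rose in R50 (log2 difference 4.12, adjusted p = 0.000139 by limma) and was called in R50_OFF (2.04, adjusted p = 0.0162 by limma), a call lost under several settings, where adjusted p reached 0.0961. ITGAM reached the level for a fit through the R50 libraries alone. VCAN, a matrix proteoglycan, fell from 6232 ± 264 to 855 ± 79.1 and 2147 ± 140. NRP1, which joins L1 in the semaphorin receptor, fell from 12292 ± 274 to 4010 ± 243 and 8664 ± 164. SEMA3A, its secreted ligand, fell from 1568 ± 103 to 482 ± 72.4 in R50 and rose to 2989 ± 185 in R50_OFF. SEMA3B, another semaphorin of the list, rose from 193 ± 20.2 to 934 ± 89.9 in R50 and fell to 148 ± 7.05 in R50_OFF. CD24, a mucin-like L1 ligand, rose from 78.3 ± 17.2 to 309 ± 46.9 in R50 and fell to 25.9 ± 5.43 in R50_OFF. FGFR1, the receptor used by NCAM1 and L1, fell from 6604 ± 238 to 5097 ± 189 in R50 and was 6787 ± 407 in R50_OFF.

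Of 19 tested cytoplasmic linkers and adaptors, 3 rose and 12 fell in R50, with a median of -0.54, and 2 rose and 9 fell in R50_OFF, with a median of -0.12. MSN, moesin, which connects L1 to actin, averaged 57857 ± 611 in parent, 401 ± 71.5 in R50 and 456 ± 48.1 in R50_OFF, a log2 difference of -7.18 (SE 0.11, limma with Benjamini-Hochberg adjusted p = 1.29e-11) and of -6.99 (adjusted p = 6.87e-11 by limma). Its relative EZR had values of 993 ± 24.6, 894 ± 59.0 and 1113 ± 26.4, and RDX, radixin, had 1324 ± 61.2, 1197 ± 177 and 1325 ± 86.3. The adjusted p of EZR was 0.0394 in R50 and 0.0334 in R50_OFF by limma, and it exceeded the threshold under several settings, reaching 0.247 and 0.11. RDX was not called, but without R50 replicate 2 its difference was -0.27 (adjusted p = 0.00368 by limma) in R50. The ankyrins moved in different directions: ANK1 rose from 154 ± 11.6 to 606 ± 57.2 and 270 ± 30.9, ANK2 fell from 155 ± 5.23 to 63.9 ± 5.15 in R50 and was 160 ± 2.99 in R50_OFF, and ANK3, which holds neurofascin at the initial segment, fell from 321 ± 17.4 to 157 ± 6.68 in R50 and was 354 ± 16.0 in R50_OFF. GAP43, a growth cone protein, fell from 89.4 ± 11.5 to 4.04 ± 0.722 and 52.9 ± 2.51.

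Of 13 sheddases and gamma-secretase genes, which cut L1 family proteins and release their ends, 3 rose and 8 fell in R50, and 6 rose and 6 fell in R50_OFF, with medians of -0.29 and 0.01. ADAM8 fell from 1005 ± 32.0 to 83.8 ± 8.65 in R50 and was 836 ± 25.2 in R50_OFF. ADAM10, the main L1 sheddase, went from 11022 ± 426 to 8879 ± 968 and 8260 ± 286, and in R50 its call was lost under quantile normalization (adjusted p = 0.184 by limma). BACE1, which cuts CHL1, fell from 2105 ± 113 to 1724 ± 41.9 in R50 and rose to 2876 ± 68.6 in R50_OFF. APH1A, a gamma-secretase subunit, rose from 6919 ± 162 to 9407 ± 602 and 10165 ± 394.

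The list of other immunoglobulin-type adhesion genes held 25, of which 13 were tested. Among those tested were CNTNAP1, CNTNAP2 and CNTNAP3, which encode contactin-associated proteins and are not of the immunoglobulin type. Of the 13, 6 rose and 5 fell in R50 and 5 rose and 5 fell in R50_OFF, with medians of 0.14 and 0.70. CADM3, a nectin-like molecule of neurons, rose from 1.49 ± 0.948 to 72.9 ± 16.7 in R50 and was 3.42 ± 0.983 in R50_OFF. NEGR1, a GPI-anchored neuronal adhesion protein, fell from 1010 ± 84.6 to 107 ± 14.5 and 330 ± 17.5. CNTNAP2, a contactin-2 partner, fell from 45.2 ± 4.43 to 4.73 ± 1.20 in R50 and was 60.4 ± 6.88 in R50_OFF. BCAM fell from a mean of 50.2 in parent to 5.46 in R50 and 2.16 in R50_OFF. Its log2 differences were -3.04 (adjusted p = 6.26e-05 by limma) and -4.13 (adjusted p = 1.11e-05 by limma). CNTNAP3 had means of 6.64 in parent and 6.52 in R50, where it was not called. It rose to 74.2 in R50_OFF (log2 difference 3.51, adjusted p = 5.82e-05 by limma). CNTN5 was listed at 0 in parent, at 2.16 ± 1.36 in R50 and at 27.3 ± 4.68 in R50_OFF, and it rose in both. The call in R50 (log2 difference 1.58, adjusted p = 0.0132 by limma) was lost with a pseudocount of 8, under quantile normalization and without R50 replicate 3, with adjusted p up to 0.241. CNTN5 reached the level for a fit through the R50_OFF libraries alone, CADM3 through the R50 libraries alone and BCAM through the parent libraries alone. CNTN4 was not tested and averaged 0, 7.02 and 4.27.

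Of the enzymes that make the polysialic acid of NCAM1 and the HNK-1 sugar, ST8SIA4 averaged 30.99 ± 7.66, 21.0 ± 5.64 and 12.8 ± 1.86 and fell in R50_OFF (log2 difference -1.20, adjusted p = 0.00382 by limma), and CHST10 averaged 2065 ± 63.9, 1368 ± 42.1 and 2274 ± 110. CHST10 fell in R50 and was called higher in R50_OFF (0.14, adjusted p = 0.0415 by limma), a call lost under several settings, where adjusted p reached 0.16. Of 22 tested GPI anchor enzymes, which THY1 and CNTN1 need to reach the surface, 7 rose and 5 fell in R50 and 3 rose and 7 fell in R50_OFF, with medians of -0.02 and -0.17. The shares called, 54.5% and 45.5%, were below the 63.3% and 52% of all tested genes. PIGT, of the transamidase that attaches the anchor, rose from 4302 ± 180 to 7214 ± 659 in R50 and was 4128 ± 73.1 in R50_OFF. PIGQ, of the first enzyme of the pathway, fell from 309 ± 11.6 to 123 ± 5.51 in R50_OFF and was 303 ± 25.6 in R50.

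**Figure D5:**
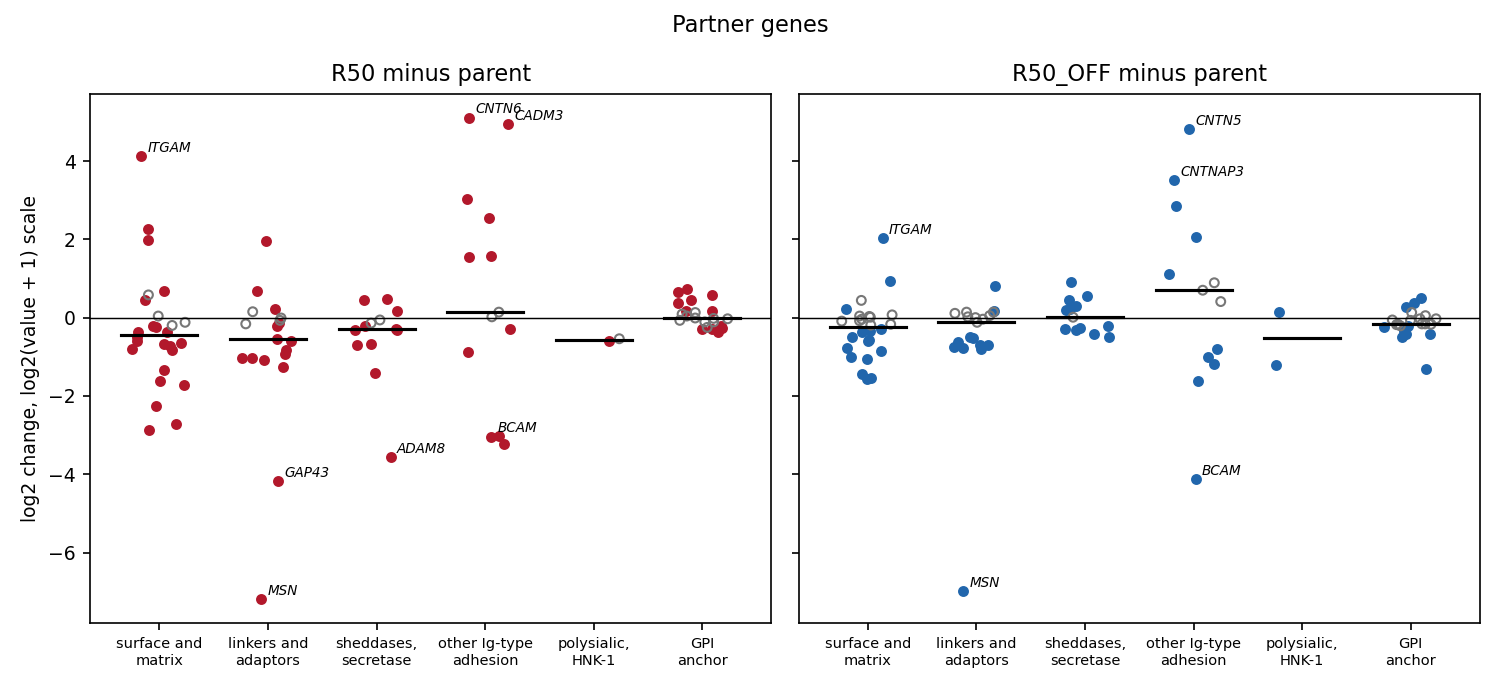
Log2 differences of tested genes of the partner lists in R50 and R50_OFF against parent, with 1 point per gene (filled where called, open where not), a line at each list's median and some of the far genes labelled. MSN lies lowest in both comparisons, at -7.18 and -6.99, and CADM3 and CNTN6 lie high in R50.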

How the data were processed

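Per the labels' protocols, libraries were strand-specific, made from poly-A RNA, and sequenced single-end for 50 bases. bcl2fastq 2.17.1.14 and hg38 are listed in the submitters' processing notes. For the aligner, counting tool, strand setting and annotation, versions and settings were not given in the sources used here. The authors deposited a table of a normalized signal, divided by median transcript length in kilobases, per the file headers. Whole reads were traced for 100% of genes within a relative tolerance of 2e-11. They served only to describe depth, with exact 95% intervals covering counting error only. Of the IDs, 33137 (99.62%) matched GENCODE version 44.

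Tests used limma 3.58.1 (R 4.3.3) on log2(value + 1), two-sided, with an empirical Bayes trend, all 9 samples in 1 fit (6 residual degrees of freedom), a minimum value of 10 in 3 libraries, Benjamini-Hochberg adjustment over 16456 genes and a threshold of 0.05. The fit was tested on simulated data. The members, lists and rules were chosen with earlier results of these data known. The rule named the 8 members, 15 partner genes whatever their result, the 3 largest changes without overlap per list and comparison, and the 3 profiles nearest to CHL1 and THY1. Of the genes so named, ITGAX, SDCBP, PCSK5, FURIN, APH1B, PIGW, PGAP3, PGAP1 and PIGB are not described above. ITGA1, ITGA5 and ITGB5 were added outside the rule. TNR, CADM2, B3GAT1 and PIGY had no matching row among the deposited genes and so were not analysed here. The glioma stem-like cells of the series text were not analysed either. Alternatives were other pseudocounts and filters, quantile normalization, the replicate block, the 6 samples compared and leaving out each library.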

Additional observations from a re-analysis of the deposited data

How the results depend on the processing

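No count changed by more than 1.5 times under any alternative run. Genes called over the whole table numbered 10422 (8832 to 11146 under other settings, 9285 to 10317 with a library left out) in R50 against parent, 8565 (7643 to 9045, 7296 to 9140) in R50_OFF against parent and 9785 (8436 to 10052, 8679 to 9590) in R50_OFF against R50. Partner genes called numbered 72 (64 to 73), 61 (54 to 66) and 70 (64 to 73). Members without overlap numbered 6 (5 to 6), 5 (5 to 6) and 5 (4 to 6). With the replicate block the whole-table counts were 10653, 8811 and 10046, and the partner counts 72, 64 and 73. The numbers share no stated source: deviations correlated at -0.021 to 0.1 for same-numbered libraries and at -0.082 to 0.044 for others. The ITGAV call in R50_OFF against R50 (adjusted p = 0.049 by limma) was lost in most alternatives, up to 0.149. Differences of members with few reads in parent (CHL1, L1CAM, THY1 and NCAM2) and of NRCAM and CNTN1 are limited by depth.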

Other observations

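Single neighbours of the members also changed by large amounts, named here after their values were seen, with distances from gene start to gene start. Those near L1CAM are given above. TTC12, 353.3 kb from NCAM1, averaged 91.6 ± 7.21 in parent, 0.456 ± 0.791 in R50 and 1.01 ± 1.74 in R50_OFF, while NCAM1 was higher in both resistant lines. NLRX1, 258.4 kb from THY1, averaged 43.6 ± 4.79 in parent and 0.254 ± 0.440 in R50 and was listed at 0 in R50_OFF. USP2, which lies 43.3 kb from THY1 and encodes a ubiquitin protease, averaged 6.37 ± 4.71, 170 ± 31.3 and 17.99 ± 4.44, and it rose in R50 (log2 difference 4.77, SE 0.45, adjusted p = 4.62e-06 by limma) and in R50_OFF (1.59, adjusted p = 0.013 by limma). KISS1, 632.2 kb from NFASC, averaged 0.623 ± 1.08 in parent and 85.2 ± 7.76 in R50 and was listed at 0 in R50_OFF.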
